A study of Sus scrofa with 6 samples.

Results

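The urea cycle of the newborn pig liver was followed through 8 genes, taken by symbol from the expression tables: the enzymes CPS1, OTC, ASS1, ASL and ARG1, the enzyme NAGS that makes the activator of CPS1, and the mitochondrial carriers SLC25A15 and SLC25A13. All 8 were found among the 26733 features measured in each library, and all 8 passed the filter on low values (1 FPKM or more in at least 3 libraries). Liver tissue came from newborn piglets of Landrace x Yorkshire breeding whose mothers ate tryptophan in either of 2 patterns over the day. In the High-Low group (3 libraries) the sow's morning feed held 0.39% tryptophan and the afternoon feed 0.13%. In the 2×Trp group (3 libraries) both feeds held 0.26%. The diets were the mothers'; the labels name no treatment of the piglets themselves, no sex, and no litter, and they leave it unsaid whether each library is from its own animal. P-values therefore measure only the spread between these libraries, which may be technical. The series title asks which liver genes accompany negative effects of dietary tryptophan.

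The urea cycle turns ammonia released from amino acids into urea for excretion. Inside the mitochondrion of the hepatocyte, NAGS makes N-acetylglutamate, which switches on CPS1; CPS1 joins ammonia and bicarbonate into carbamoyl phosphate, and OTC transfers it to ornithine to give citrulline. In the cytosol, ASS1 joins citrulline to aspartate, ASL splits the product into arginine and fumarate, and ARG1 releases urea and gives back ornithine. SLC25A15 carries ornithine into the mitochondrion in exchange for citrulline, and SLC25A13 (citrin) brings aspartate out to the cytosol. In mammals these genes are most strongly expressed in the hepatocytes around the portal vein, and loss of any of them in people causes a disorder of ammonia or citrulline metabolism.

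Values are FPKM, fragments scaled to transcript length and to the library's fragment total, read as such from the values because the headers give no unit. FPKM totals ran from 956426 to 1230288 per library. The number of fragments is unknown, but ratios of the same low gene between libraries recurred at fixed steps, from which the normalising depth of the deepest library came to 1.41 times that of the shallowest, 2×Trp 2. The mitochondrial sequence held 10.02%, 5.83% and 6.79% of FPKM in High-Low 1 to 3, and 3.48%, 5.204% and 4.16% in 2×Trp 1 to 3. Hepatocyte identity was plain in every library: the matched hepatocyte markers summed to between 95414 and 164341 FPKM in High-Low and between 124881 and 151140 FPKM in 2×Trp, with 1 of 16, AHSG, listed at 0 throughout. In bulk tissue, fewer cells of a type and less RNA per cell cannot be told apart.

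All 8 urea cycle messages were present in all 6 libraries, and none passed the test for a difference between the maternal diets. ASS1, the most abundant, averaged 1878 ± 304 FPKM in High-Low and 2176 ± 140 FPKM in 2×Trp (SD, n = 3 each). NAGS, the least abundant, averaged 18.4 ± 14.7 FPKM in High-Low and 11.3 ± 1.58 FPKM in 2×Trp (SD, n = 3 each). Of the 8, 0 were called in limma at an adjusted p under 0.05 over the 10901 genes tested, where 0.00917% of all genes were called (1 gene), and 0 of the 8 reached an unadjusted p under 0.05, against 3.16% of all genes. For 0 of the 8 did the groups separate completely, against 7.18% of all genes (3.06% higher and 4.12% lower in High-Low). The log2 fold changes were negative for 4 and positive for 4, where 50.5% of all genes were negative, with a median of -0.09 beside -0.0038 over all genes tested.

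**Figure D1:**
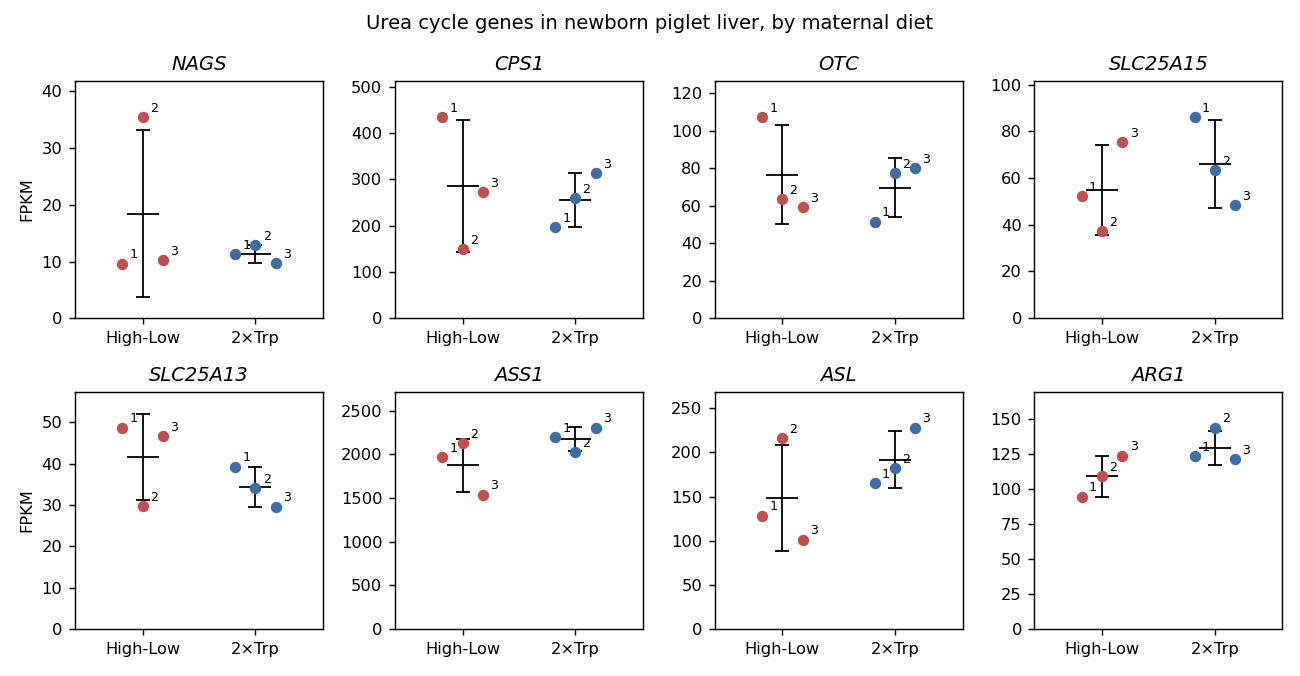
FPKM of the 8 urea cycle genes in each library (points, numbered by replicate) in High-Low and 2×Trp livers, with the mean and SD of each group (bars, n = 3 each). The groups overlap in every panel; the NAGS value of 35.4 FPKM in High-Low 2 and the CPS1 value of 435 FPKM in High-Low 1 stand farthest from their groups.

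The entry to the cycle was the most variable part. CPS1 (ENSSSCG00000016159, chromosome 15, 125183127 to 125279114, plus strand, susScr3), which fixes ammonia, had 435, 149 and 273 FPKM in High-Low 1, 2 and 3, and 197, 259 and 313 FPKM in 2×Trp 1, 2 and 3. The highest and the lowest value were both in High-Low, 2.92-fold apart, and the 3 2×Trp values lay between them. The log2 fold change was 0.05 (SE 0.39; adjusted p = 0.998 in limma), and its 95% interval ran from -0.87 to 0.97, that is from a 0.548-fold to a 1.95-fold level in High-Low. The sign rested on single libraries: without High-Low 1 the value was -0.32, and without 2×Trp 1 it was -0.13.

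NAGS (ENSSSCG00000024179, chromosome 12, 19402214 to 19411777, minus strand) had 9.63, 35.4 and 10.3 FPKM in High-Low 1, 2 and 3, and 11.3, 12.9 and 9.75 FPKM in 2×Trp 1, 2 and 3. High-Low 2 alone was raised, and the other 5 libraries lay close together. Its log2 fold change of 0.42 (SE 0.47; adjusted p = 0.998 in limma) became -0.16 without High-Low 2. TMEM101, on the plus strand, lies wholly inside the NAGS interval, and the strand setting of the authors' counting is not known here, so the NAGS value is uncertain. TMEM101 had 13.03, 17.5 and 15.04 FPKM in High-Low 1, 2 and 3, and 14.7, 13.7 and 13.7 FPKM in 2×Trp 1, 2 and 3, a much smaller excess in High-Low 2 than that of NAGS.

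OTC (ENSSSCG00000012236, chromosome X, 38182204 to 38251738, plus strand), the citrulline-forming enzyme, had 107, 63.6 and 59.1 FPKM in High-Low 1, 2 and 3, and 51.5, 77.4 and 79.98 FPKM in 2×Trp 1, 2 and 3. High-Low 1 was again highest, as for CPS1, and the lowest value was in 2×Trp 1. The log2 fold change was 0.11 (SE 0.29; 95% interval -0.58 to 0.80; adjusted p = 0.998 in limma). It turned to -0.15 without High-Low 1 and to -0.09 without 2×Trp 1.

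The carriers that link the mitochondrion to the cytosol were moderately expressed. SLC25A15 (ENSSSCG00000009373, chromosome 11, 15797583 to 15843547, plus strand), the ornithine carrier, had 52.2, 37.3 and 75.4 FPKM in High-Low 1, 2 and 3, and 86.0, 63.4 and 48.4 FPKM in 2×Trp 1, 2 and 3. Its log2 fold change was -0.28 (SE 0.32; 95% interval -1.02 to 0.47). SLC25A13 (ENSSSCG00000015336, chromosome 9, 83194775 to 83350961, minus strand), the aspartate carrier, had 48.7, 29.8 and 46.7 FPKM in High-Low 1, 2 and 3, and 39.3, 34.0 and 29.6 FPKM in 2×Trp 1, 2 and 3. High-Low 2 was low for both carriers, and each group spanned much of the range of the other. The log2 fold change of SLC25A13 was 0.25 (SE 0.24; 95% interval -0.32 to 0.82). SLC25A12, the other aspartate carrier of the family and in mammals the main one outside the liver, averaged 3.76 ± 1.302 FPKM in High-Low and 3.39 ± 0.441 FPKM in 2×Trp (SD, n = 3 each).

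The 3 cytosolic enzymes all had lower means in High-Low, without passing the test. ASS1 (ENSSSCG00000005701, chromosome 1, 304454129 to 304508998, plus strand) had 1966, 2129 and 1541 FPKM in High-Low 1, 2 and 3, and 2197, 2028 and 2305 FPKM in 2×Trp 1, 2 and 3. High-Low 3 was lowest, and High-Low 2 lay above 2×Trp 2. The log2 fold change was -0.22 (SE 0.19; adjusted p = 0.998 in limma), with a 95% interval from -0.66 to 0.22, or 0.631-fold to 1.16-fold.

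ASL (ENSSSCG00000007738, chromosome 3, 16890467 to 16899578, plus strand), the arginine-forming step, had 128, 216 and 101 FPKM in High-Low 1, 2 and 3, and 165, 182 and 228 FPKM in 2×Trp 1, 2 and 3. The values of High-Low 1 and High-Low 3 lay below every 2×Trp value, and that of High-Low 2 was above 2 of them. ASL had the smallest p of the 8 genes. Its log2 fold change was -0.43 (SE 0.30; 95% interval -1.14 to 0.28; adjusted p = 0.998 in limma). Without High-Low 2 it was -0.73 and without High-Low 3 it was -0.19, and the adjusted p missed the threshold in both fits (0.344 and 1.00, limma).

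ARG1 (ENSSSCG00000004195, chromosome 1, 35580461 to 35594611, minus strand), which releases urea, had 94.4, 109 and 123 FPKM in High-Low 1, 2 and 3, and 123, 143 and 121 FPKM in 2×Trp 1, 2 and 3. High-Low 1 and High-Low 2 lay below all 2×Trp libraries, while High-Low 3, at 123.4 FPKM, was above 2×Trp 1 (122.995 FPKM) and 2×Trp 3 (121.2 FPKM). Its log2 fold change was -0.25 (SE 0.19; 95% interval -0.69 to 0.19; adjusted p = 0.998 in limma). ARG2, the mitochondrial arginase that is not part of the hepatic cycle, averaged 8.62 ± 2.59 FPKM in High-Low and 12.6 ± 6.25 FPKM in 2×Trp (SD, n = 3 each).

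**Figure D2:**
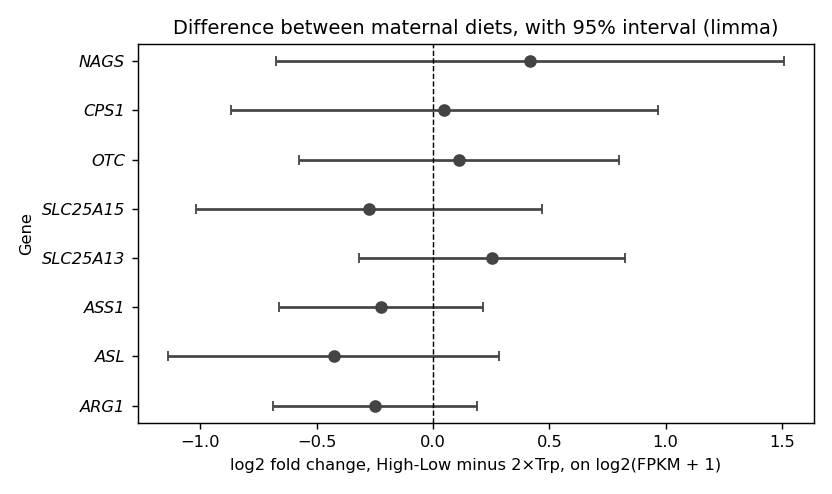
Log2 fold change of each gene between the maternal diets (High-Low minus 2×Trp, on log2(FPKM + 1)) with its 95% interval from limma; the dashed line marks no difference. All 8 intervals include 0, and the intervals of ASS1 (-0.66 to 0.22) and ARG1 (-0.69 to 0.19) are the narrowest.

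By mean FPKM over the 6 libraries the order was ASS1 (2027), CPS1 (271), ASL (170.1), ARG1 (119), OTC (73.1), SLC25A15 (60.5), SLC25A13 (38.0) and NAGS (14.9). ASS1 was first in every library, and NAGS was last in every library except High-Low 2, where it stood above SLC25A13. Neighbours between these ends changed places: ASL exceeded CPS1 in High-Low 2, ARG1 exceeded ASL in High-Low 3, OTC exceeded ARG1 in High-Low 1, and SLC25A15 exceeded OTC in High-Low 3 and 2×Trp 1. Among all 26733 features, ASS1 ranked between 76 and 117 and CPS1 between 314 and 732. NAGS ranked between 2106 and 4537.

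This order between genes depends on the transcript lengths behind the FPKM. The tables list 1119 bases for CPS1, 300 for ASS1, 209 for ASL and 320 for SLC25A13, each shorter than the coding sequence of the enzyme or carrier it names. They list 1086 bases for OTC, 1129 for ARG1, 2177 for SLC25A15 and 4983 for NAGS. A level divided by too short a length is too high, and the sources used here do not state which length entered the FPKM, so the gap between ASS1 and the other genes cannot be read as a difference in message number. Comparisons of 1 gene between libraries are free of this limit.

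Summed over the 8 genes, the cycle held 2841, 2769 and 2229 FPKM in High-Low 1, 2 and 3, and 2870, 2800 and 3135 FPKM in 2×Trp 1, 2 and 3. That was 0.232 ± 0.0066% of the FPKM total in High-Low and 0.261 ± 0.0299% in 2×Trp (SD, n = 3 each). ASS1 made up 71.7 ± 4.46% of the sum in High-Low and 74.2 ± 2.14% in 2×Trp (SD, n = 3 each). Without ASS1, the other 7 genes summed to 735 ± 124 FPKM in High-Low and 758 ± 79.4 FPKM in 2×Trp (SD, n = 3 each), a difference smaller than either SD. No test was made on these sums.

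How tightly the cycle was held differed between its genes. The SD of log2(FPKM + 1) over the 6 libraries was 0.20 for ARG1 and 0.21 for ASS1, below which lay 19.9% and 21.0% of all genes tested. It was 0.31 for SLC25A13, close to the median of 0.32 over all genes tested and of 0.31 over the 926 genes with a mean of 100 FPKM or more. It was 0.37 for OTC, 0.43 for SLC25A15, 0.45 for ASL, 0.53 for CPS1 and 0.68 for NAGS. CPS1 was more variable than 82.1% of all genes tested and NAGS than 91.2%. Over the 8 genes the median SD was 0.40, above the median of all genes tested, and 3 of the 8 lay below that median. Without High-Low 2 the median of the 8 was 0.32, and the median of all genes without that library is not given here. The ratio of the highest to the lowest library was 1.496 for ASS1, 1.52 for ARG1, 1.65 for SLC25A13 and 3.68 for NAGS.

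**Figure D3:**
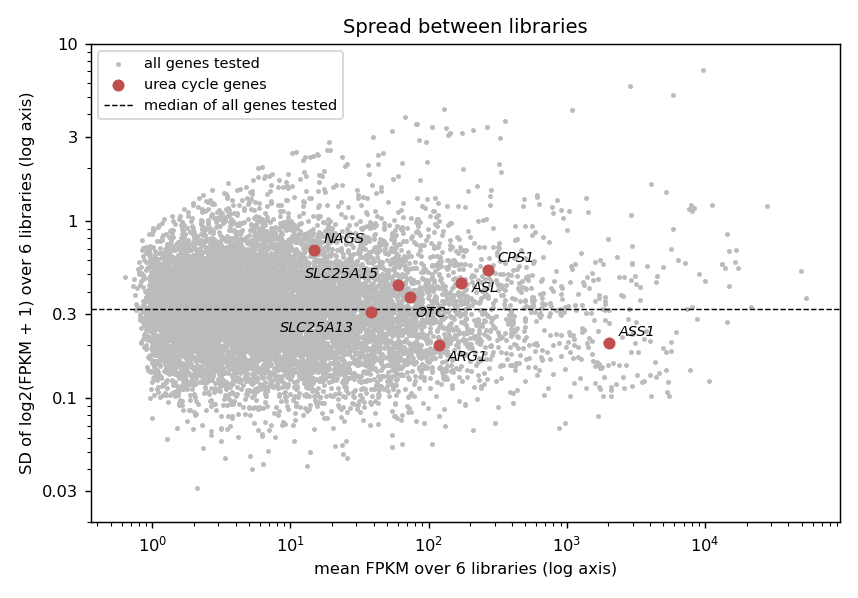
Spread between libraries against abundance: the SD of log2(FPKM + 1) over the 6 libraries (log axis) against mean FPKM (log axis) for 10901 genes tested (grey) and the 8 urea cycle genes (red), with the median SD of all genes, 0.32 (dashed). ARG1 and ASS1 lie below the line, SLC25A13 almost on it, and NAGS and CPS1 highest of the 8.

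The spread was wider within High-Low than within 2×Trp for 8 of 8 genes, against 61.1% of all genes tested. For CPS1 the SD of log2(FPKM + 1) was 0.77 in High-Low and 0.34 in 2×Trp, for ASL 0.56 in High-Low and 0.24 in 2×Trp, and for NAGS 1.00 in High-Low and 0.19 in 2×Trp. This count followed single libraries: without High-Low 2 it was 5 of 8, with 38.2% of all genes, and without High-Low 1 it was 6 of 8, with 53.8% of all genes.

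The 8 genes did not move as a unit from library to library. High-Low 1 was the highest library for CPS1, OTC and SLC25A13, and the lowest for ARG1 and NAGS. High-Low 2 was the highest for NAGS and the lowest for CPS1 and SLC25A15. High-Low 3 was the lowest for ASS1 and ASL. Averaged over the 5 mitochondrial genes, the level relative to each gene's mean was 0.23, -0.10 and 0.04 on the log2 scale in High-Low 1, 2 and 3, and -0.08, 0.02 and -0.11 in 2×Trp 1, 2 and 3. Averaged over the 3 cytosolic enzymes it was -0.23, 0.12 and -0.34 in High-Low 1, 2 and 3, and 0.07, 0.15 and 0.24 in 2×Trp 1, 2 and 3. The opposite movements cancelled in the mean of all 8, which varied with an SD of only 0.064. The median of the 8 behaved otherwise. It was -0.09, -0.14 and -0.10 in High-Low 1, 2 and 3, and 0.03, 0.07 and 0.10 in 2×Trp 1, 2 and 3. The median thus did not overlap between the diets, but no test was made on it.

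**Figure D4:**
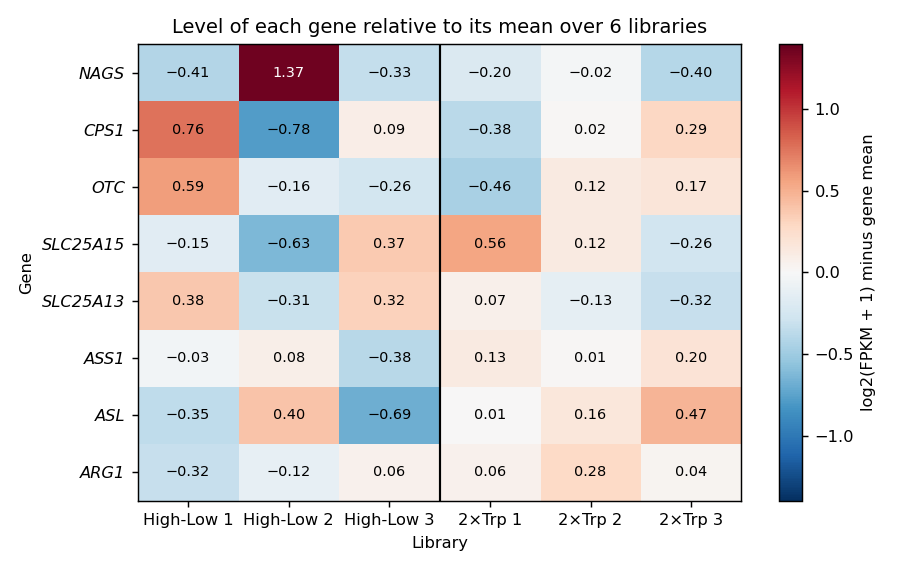
Level of each gene in each library as log2(FPKM + 1) minus the gene's mean over the 6 libraries (colour and number), High-Low left of the line and 2×Trp right of it; the upper 5 genes act in the mitochondrion and the lower 3 in the cytosol. CPS1 and NAGS stand at opposite ends in High-Low 2 (-0.78 and 1.37), and columns mix red and blue.

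Both the steadiest and the least steady proportions were found between genes of 1 compartment. Among the 28 pairs, the smallest SD of a log2 ratio over the 6 libraries was 0.29, for ASS1 and ASL, which carry out successive steps. Their ratio was 15.4, 9.84 and 15.2 in High-Low 1, 2 and 3, and 13.3, 11.1 and 10.1 in 2×Trp 1, 2 and 3. CPS1 and OTC, the successive mitochondrial steps, had an SD of 0.34, next after ASS1 and ARG1, also at 0.29. The CPS1 to OTC ratio was 4.06, 2.34 and 4.61 in High-Low 1, 2 and 3, and 3.82, 3.35 and 3.92 in 2×Trp 1, 2 and 3, so it was steady except in High-Low 2. The nearest partner of each carrier was the other carrier (SD 0.38). Over the 13 pairs within a compartment the SD ran from 0.29 to 1.19, with a median of 0.46. Over the 15 pairs across compartments it ran from 0.39 to 0.83, with a median of 0.61. The widest pair, both of the mitochondrion, was CPS1 and NAGS, enzyme and maker of its activator, with an SD of 1.19 and a 10.7-fold range. The CPS1 to NAGS ratio was 45.1, 4.21 and 26.6 in High-Low 1, 2 and 3, and 17.5, 20.1 and 32.1 in 2×Trp 1, 2 and 3.

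Over all 28 pairs the median SD was 0.60, and over the 21 pairs without NAGS it was 0.48, beside 0.47 over the 9903475 pairs of all genes with a mean of 10 FPKM or more. These medians gave no sign of closer proportions within the cycle than between genes in general. OTC was nearer to CPS1 than all but 3.37% of the 4450 genes ranked, which placed it at 151, and ASS1 stood at place 420 for ASL (9.42% nearer). In the other direction, CPS1 was at place 475 for OTC (10.7% nearer) and ASL at place 1743 for ASS1 (39.1% nearer). For SLC25A15, the other carrier SLC25A13 was at place 263 (5.89% nearer) and the cytosolic ARG1 at place 358 (8.02% nearer). Near places were thus not limited to CPS1 with OTC and ASS1 with ASL. These places rest on 6 libraries and are a description only. In 2 of the 28 pairs the ratio did not overlap between the diets, which is 7.94% among all pairs of genes. The SLC25A15 to SLC25A13 ratio was 1.07, 1.25 and 1.61 in High-Low 1, 2 and 3, and 2.19, 1.86 and 1.64 in 2×Trp 1, 2 and 3. The ASL to NAGS ratio was 13.3, 6.10 and 9.86 in High-Low 1, 2 and 3, and 14.6, 14.1 and 23.4 in 2×Trp 1, 2 and 3.

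High-Low 1 and High-Low 2 lay far apart, and in these 2 libraries the urea cycle genes were ordered roughly by the genomic span of the gene. The log2 difference, High-Low 1 minus High-Low 2, was 1.54 for CPS1 (span 96.0 kb), 0.74 for OTC (69.5 kb), 0.69 for SLC25A13 (156 kb) and 0.47 for SLC25A15 (46.0 kb). It was -0.11 for ASS1 (54.9 kb) and -0.20 for ARG1 (14.2 kb). It was -0.75 for ASL (9.11 kb) and -1.78 for NAGS (9.56 kb). The 4 genes with differences above 0 thus span 46.0 kb or more, as does ASS1, which lay below 0, and the 2 most compact genes were the farthest below 0.

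The class medians of all genes with a mean of 10 FPKM or more followed the same order. The median log2 difference, High-Low 1 minus High-Low 2, was -0.34 over the 2229 genes that span under 10 kb, -0.19 over 939 genes of 10 to 20 kb, -0.04 over 872 genes of 20 to 50 kb and 0.07 over 446 genes of 50 kb or more. In the same order, 27.8%, 37.7%, 48.3% and 53.1% of genes were higher in High-Low 1. The direction was thus nearly balanced among genes of 20 kb or more. CPS1, OTC, SLC25A13, ARG1, ASL and NAGS differed in the same direction as the medians of their classes and by more, ARG1 by little (-0.20 against -0.19). ASS1 (-0.11) and SLC25A15 (0.47) differed in the opposite direction to their class medians. Relative to each gene's mean over the libraries, the median of genes under 10 kb was -0.15, 0.20 and -0.17 in High-Low 1, 2 and 3. It was 0.08, 0.07 and 0.01 in 2×Trp 1, 2 and 3. High-Low 1 and High-Low 3 were thus alike in this class, and High-Low 2 was the highest library. The order by span is given for the pair of High-Low 1 and High-Low 2 only. This pair and the span classes were chosen after the values were seen. The part that gene span, or anything that goes with it, has in the members' values was not tested.

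**Figure D5:**
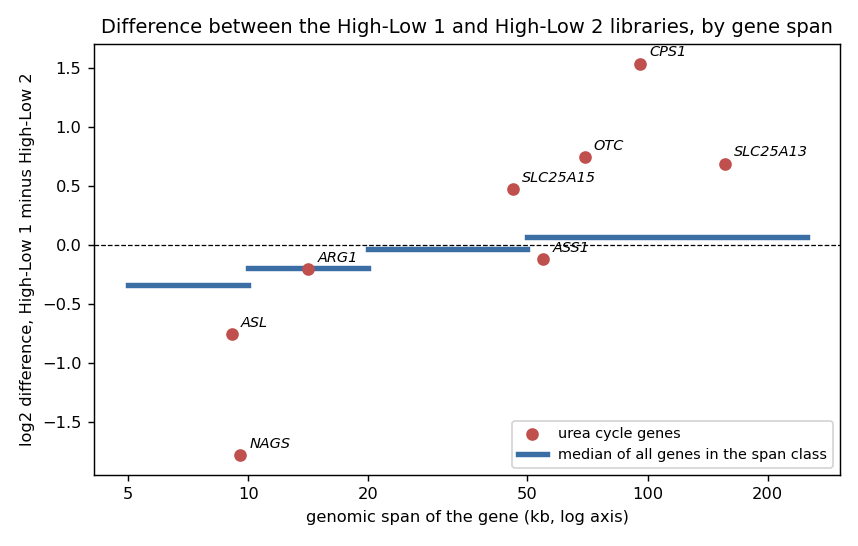
Log2 difference between the High-Low 1 and High-Low 2 libraries for each urea cycle gene (red) against its genomic span (kb, log axis), with the median of all genes of at least 10 FPKM in 4 span classes (blue bars: under 10, 10 to 20, 20 to 50, and 50 kb or more). Compact genes lie below 0 (NAGS -1.78) and most long ones above it (CPS1 1.54).

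Marker messages of blood and other non-hepatocyte cells also differed between libraries. All 14 matched endothelial markers had a negative log2 fold change, and their sum ran from 160 to 273 FPKM in High-Low and from 246 to 319 FPKM in 2×Trp. Macrophage markers were negative in 7 of 8, against 50.5% of all genes tested, with sums of 275 to 479 FPKM in High-Low and 452 to 622 FPKM in 2×Trp. Of these 8, 4 had an unadjusted p under 0.05 in limma, against 3.16% of all genes tested, and 0 were called. Of the 7 erythroid markers tested 6 were negative, and the 11 matched ones summed to 1822 to 7203 FPKM in High-Low and 6177 to 15897 FPKM in 2×Trp. Neutrophil markers were positive in 9 of 10, with sums of 46.6 to 191 FPKM in High-Low, highest in High-Low 2, and 46.8 to 69.2 FPKM in 2×Trp. Bile duct, stellate and lymphocyte markers were negative in 2 of 5, 7 of 10 and 4 of 5. Hepatocyte markers were negative in 10 of 15, with a median of -0.19. Of the 5 positive ones, ALB averaged 17650 ± 3549 FPKM in High-Low and 12020 ± 2996 FPKM in 2×Trp (SD, n = 3 each). The mean marker level was lowest in High-Low 3 (-0.29 on the log2 scale relative to all libraries), the library lowest for ASS1 and ASL. OTC and NAGS were also below their means there, and CPS1, ARG1 and both carriers above theirs. High-Low 3 had the lowest FPKM total, 956426. The cycle's share of it, 0.233%, lay between those of High-Low 1 (0.238%) and High-Low 2 (0.225%). Genes typical of hepatocytes near the portal vein had a median log2 fold change of 0.04 (5 tested), and those typical of hepatocytes near the central vein 0.26 (6 tested), with 0 called in either. The part of cell composition in the urea cycle values was not tested.

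The routes that bring nitrogen to the cycle or draw on its intermediates likewise held no gene that passed the test between the diets. Of 10 tested genes of ammonia and glutamine handling 0 were called, with a median log2 fold change of 0.13. GLUD1, which releases ammonia from glutamate, had 806, 409 and 818 FPKM in High-Low 1, 2 and 3, and 640, 662 and 505 FPKM in 2×Trp 1, 2 and 3. It was low in High-Low 2, as CPS1 was. SLC38A3, a glutamine transporter, averaged 363 ± 53.9 FPKM in High-Low and 311 ± 42.1 FPKM in 2×Trp, and GLS2, the liver glutaminase that feeds ammonia to CPS1, averaged 19.9 ± 9.75 FPKM in High-Low and 16.9 ± 2.72 FPKM in 2×Trp (SD, n = 3 each). AQP9, a channel for water, glycerol and urea, averaged 34.4 ± 9.12 FPKM in High-Low and 22.5 ± 5.97 FPKM in 2×Trp (SD, n = 3 each), with a log2 fold change of 0.59 and an adjusted p of 0.998 in limma. GOT1, which makes aspartate in the cytosol, averaged 68.9 ± 22.0 FPKM in High-Low and 85.8 ± 17.5 FPKM in 2×Trp (SD, n = 3 each).

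Of 18 tested genes that use ornithine or arginine, or make polyamines or creatine, 0 were called; 8 lay above 0 and 10 below it, and the median log2 fold change was -0.04. OAT, which removes ornithine, had 6.81, 6.05 and 7.32 FPKM in High-Low 1, 2 and 3, and 27.4, 27.2 and 5.75 FPKM in 2×Trp 1, 2 and 3. The High-Low values lay close together, far below 2×Trp 1 and 2×Trp 2, and 2×Trp 3 was the lowest of all 6. AGMAT, a relative of the arginases, averaged 653 ± 131 FPKM in High-Low and 824 ± 106 FPKM in 2×Trp (SD, n = 3 each). GAMT, the second enzyme of creatine synthesis, averaged 811 ± 223 FPKM in High-Low and 1004 ± 55.9 FPKM in 2×Trp, while GATM, the first, which consumes arginine, averaged 8.03 ± 2.10 FPKM in High-Low and 7.09 ± 1.84 FPKM in 2×Trp (SD, n = 3 each). OAZ1, which restrains ornithine decarboxylase, averaged 242 ± 21.9 FPKM in High-Low and 281 ± 27.3 FPKM in 2×Trp, and ODC1, that decarboxylase, 54.3 ± 22.0 FPKM in High-Low and 53.8 ± 10.95 FPKM in 2×Trp (SD, n = 3 each).

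Of 8 tested genes of the aspartate and malate shuttle 0 were called (median log2 fold change 0.04), and of 4 tested genes of pyrimidine synthesis, the other use of carbamoyl phosphate, 0 were called (0.08). MDH2, the mitochondrial malate dehydrogenase, averaged 270 ± 52.9 FPKM in High-Low and 299 ± 7.08 FPKM in 2×Trp, and FH, the mitochondrial and cytosolic fumarase, 154 ± 32.3 FPKM in High-Low and 157 ± 20.8 FPKM in 2×Trp (SD, n = 3 each). SLC25A1, the citrate carrier, averaged 102 ± 62.0 FPKM in High-Low and 109 ± 12.4 FPKM in 2×Trp, and ADSL of purine synthesis 26.2 ± 2.23 FPKM in High-Low and 23.5 ± 0.826 FPKM in 2×Trp (SD, n = 3 each). CAD, which makes the cytosolic carbamoyl phosphate, averaged 0.77 ± 0.163 FPKM in High-Low and 0.757 ± 0.335 FPKM in 2×Trp (SD, n = 3 each) and was too low to be tested. DHODH averaged 21.4 ± 2.27 FPKM in High-Low and 18.9 ± 5.72 FPKM in 2×Trp, UMPS 12.9 ± 2.66 FPKM in High-Low and 10.9 ± 1.77 FPKM in 2×Trp, CTPS2 15.3 ± 0.987 FPKM in High-Low and 15.9 ± 1.49 FPKM in 2×Trp, and CTPS1 2.71 ± 1.201 FPKM in High-Low and 3.98 ± 2.23 FPKM in 2×Trp (SD, n = 3 each).

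Of 15 tested transcription factors, receptors and cofactors known to act on urea cycle genes or liver nitrogen metabolism 0 were called; 10 lay above 0 and 5 below it, and the median log2 fold change was 0.16. HNF4A, which drives OTC expression in mouse liver, had 65.6, 63.4 and 61.8 FPKM in High-Low 1, 2 and 3, and 84.1, 47.6 and 46.2 FPKM in 2×Trp 1, 2 and 3. CEBPA, needed for normal urea cycle enzyme expression in newborn mouse liver, averaged 91.9 ± 27.0 FPKM in High-Low and 77.8 ± 21.2 FPKM in 2×Trp (SD, n = 3 each). FOXA2 averaged 66.2 ± 7.73 FPKM in High-Low and 75.4 ± 17.1 FPKM in 2×Trp, FOXA3 63.7 ± 17.9 FPKM in High-Low and 64.1 ± 16.5 FPKM in 2×Trp, and PPARA 4.10 ± 1.57 FPKM in High-Low and 2.26 ± 0.974 FPKM in 2×Trp (SD, n = 3 each).

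The cycle's mean profile was nearly flat, and the genes that ran closest to it were flat too. By the root mean square difference of centred log2 values over the 6 libraries, those nearest among 2698 genes with a symbol and at least 10 FPKM included NCSTN (0.029), CPN1 (0.049), RETREG3 (0.056) and WRAP53 (0.061). Of the 8 urea cycle genes, 6 lay farther from their own mean profile than the median of those 2698 genes did (0.256). ASS1 and ARG1 were the exceptions, at 0.16 and 0.196. Because the mean profile was nearly flat, this distance is close to each gene's own spread, so the count largely repeats the SDs above.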

How the data were processed

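RNA was isolated with Trizol and made into libraries with the Illumina TruSeq RNA chemistry, per the labels' protocols. Tools named in the submitters' processing notes are Bowtie2 2.2.3, TopHat2 2.0.12 and HTSeq 0.6.1, with the assembly susScr3; how the expression values were made is not stated there. Each library has 1 table, and its deposited values were read as FPKM, since they are not whole numbers and their totals differ; coordinates and listed lengths are the authors'. Groups and replicate numbers came from the sample titles.

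Ensembl identifiers were given symbols from a lookup table (11804 of 25322 matched). The 10901 genes that reached 1 FPKM in at least 3 libraries were fitted on log2(FPKM + 1) in limma 3.58.1 (R 4.3.3), with trended and robust variance moderation, Benjamini-Hochberg adjustment over all of them and a threshold of 0.05. Fold changes are High-Low minus 2×Trp and understate low genes. The fit recovered most added log2 changes of 3 in simulated data with normal noise. Its recovery of smaller changes, of the size seen for the members, is not reported here. Relative depth is the mode of log2 ratios of low genes between libraries.

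Members and gene lists were chosen with earlier results of these data known. Named genes are the 8 members, the 3 most abundant and the 2 of smallest p of each pathway list, and fixed neighbours, of which GLUL, CA5A and SLC25A2 had no identifier; not every gene the rule names is reported here. TMEM101 and AHSG were named after their values were seen. Alternatives were other pseudocounts, filters and scalings, plain variance moderation, array weights, a replicate block and leaving out each library. Figures come from matplotlib 3.10.9 under Python 3.11.15.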

Additional observations from a re-analysis of the deposited data

How the results depend on the processing

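Depth limits are known only in relative terms, so no counting interval was given. With 3 libraries a group, changes as large as the bounds of each gene's interval are not excluded. Those bounds are not a limit of detection, which was not measured for the members. Under all 15 alternatives per gene, adjusted p-values in limma ran from 0.238 to 1, and 0 members were called. Unadjusted p-values in limma were less stable. With array quality weights they were 0.0045 for ASL, 0.021 for ASS1 and 0.023 for SLC25A13, and 1789 genes in all lay under 0.05. Without High-Low 2 they were 0.013 for ASL and 0.038 for SLC25A13, and 1412 genes in all lay under 0.05. The remaining members stayed above 0.05 in both fits. ASS1, ASL, ARG1 and SLC25A13 kept their direction throughout (ranges -0.44 to -0.09, -0.86 to -0.19, -0.34 to -0.11 and 0.13 to 0.47). With array quality weights, OTC turned to -0.15, NAGS to -0.0041 and SLC25A15 to 0.21; the weights ran from 0.279 for High-Low 2 to 4.28 for High-Low 3. Leaving out single replicates, CPS1 ran from -0.32 to 0.45, OTC from -0.15 to 0.27, NAGS from -0.16 to 0.73 and SLC25A15 from -0.53 to -0.03. The median log2 fold change of the 8 ran from -0.21 to -0.014 without single replicates, and was -0.024 with scaling to the total outside the mitochondrial sequence, -0.0504 with quantile normalization and -0.057 with array quality weights. Genes called lower numbered 1 in place of 0 when libraries were scaled to their FPKM total or to the total outside the mitochondrial sequence, under quantile normalization and under array quality weights; genes called higher ran from 1 to 2 without single replicates. The cause was not tested. The summed FPKM difference of -322 came to -23.8 without ASS1, a choice made after seeing the data, as was leaving NAGS out of the spread (median SD 0.37). Same-numbered libraries showed no shared deviation (correlations -0.216, -0.0113 and 0.0323). With 3 libraries a group this cannot settle whether the numbers pair them. With the replicate block 0 members and 1 gene in all were called, and 304 genes in place of 345 had an unadjusted p under 0.05 in limma.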
